A study of Oryza sativa with 6 samples.

Results

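Type-A response regulators are the genes by which a plant cell damps and reports its response to cytokinin, and 9 rice loci of this family were followed across arrays of copper-treated and cadmium-treated roots. The members were taken as every probe whose name starts with one of the 9 locus numbers. Of these, 8 loci have a probe on the array, 11 probes in all, out of 29695 loci and 41908 locus probes. Os07g0449700 has no probe under its number. RNA came from the roots of rice seedlings (Oryza sativa) of cultivar TN-67, aged 6 days, and was read on 6 two-colour Agilent arrays. On 3 arrays the roots had been given 5 µM copper, on 3 arrays 25 µM cadmium, and on every array the other channel held roots kept in water. Metal-treated RNA always carried the red dye Cy5 and water RNA the green dye Cy3, so a dye effect on a probe cannot be told apart from that of a metal. Arrays of the same metal are biological replicates, 3 for each, by their labels. The design text lists 3 control replicates for the 6 arrays, so both metals may share control RNA, and their values are given side by side.

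Cytokinin is perceived by membrane histidine kinases, which pass a phosphate group through phosphotransfer proteins to type-B response regulators in the nucleus. Type-B regulators switch on target genes, among them the type-A genes, whose products carry a receiver domain without a DNA-binding domain and act back on the pathway as inhibitors. Type-A transcripts therefore rise quickly when cytokinin is applied and are used as readouts of the pathway, and in roots cytokinin is known to restrain elongation and to set the size of the meristem. All loci below share this role, and the array files pair the locus numbers with no gene name, so members are given by number. The first digits of a locus number give its chromosome.

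Of the 8 loci on the array, 7 gave signals well above background in both channels of all 6 arrays with the probe that was tested. The locus left out, Os04g0524300 on chromosome 4, was not well above background in either channel of any array. Its signals lay between 5.98 and 6.26 on the log2 scale in metal-treated roots and between 6.06 and 6.23 in water roots, and no fold is given. The number of arrays limits the precision. Between 77.0% and 82.3% of all probes were well above background in Cy5 and between 75.6% and 81.2% in Cy3, and 0 spots were saturated. Copper arrays 2 and 3 and cadmium arrays 2 and 3 lay on 1 slide, and arrays 1 of both metals on a slide each of their own. Over all genes the ratios of arrays 2 and 3 correlated at 0.96 with copper and 0.95 with cadmium. Array 1 correlated with them at 0.81 and 0.84 for copper, and at 0.83 and 0.80 for cadmium. Because the loci carry no names here, markers of root or shoot tissue were not analysed. In whole roots, fewer cells of a type and less RNA per cell cannot be told apart.

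The limma fit took all 6 arrays as independent and pooled the spread of a gene over both metals. Each of the 7 genes therefore has the same SE with copper and with cadmium, and arrays of 1 metal bear on calls of the other. With copper, 3 of the 7 measured genes fell, 0 rose and 4 did not pass the test (limma, adjusted p under 0.05). Of all 23417 genes tested, 42.9% passed, 17.5% lower and 25.4% higher. With the scanner's processed signals the balance turned, to 31.6% lower and 21.1% higher. The authors' series table, which holds nearly the same ratios, gave 31.8% and 21.1%. After centring on their median, the processed signals gave 19.7% lower and 25.2% higher. Os02g0830200 alone fell to less than 50% of its water level, as 0.393% of all genes did. In all, 6 of the 7 genes had ratios below 0 on all 3 copper arrays, as had 31.9% of all genes. The median change of the 7 genes was -0.59 on the log2 scale, against 0.02 over all genes tested. With cadmium, 4 of the 7 genes fell, 1 rose and 2 did not pass. Of all genes, 34.0% passed, 12.9% lower and 21.0% higher, and the processed signals and the authors' series table each gave 24.7% lower and 17.5% higher. Centred on their median, the processed signals gave 16.1% lower and 19.6% higher. Ratios were below 0 on all 3 cadmium arrays in 4 of the 7 genes and 28.8% of all genes, and on all 6 arrays in 4 of the 7 and 18.3% of all genes. The median change was -0.48, against 0.01 over all genes. With cadmium 3 genes fell to less than 50% of their water level at the tested probe, as did 0.538% of all genes. With the mean of the probes of a gene, Os11g0143300 and Os02g0557800 stayed above 50%, at log2 changes of -0.93 and -0.99. The genes that passed in both metals, Os02g0557800 and Os04g0442300, were lower with each, as were 7.23% of all genes.

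**Figure D1:**
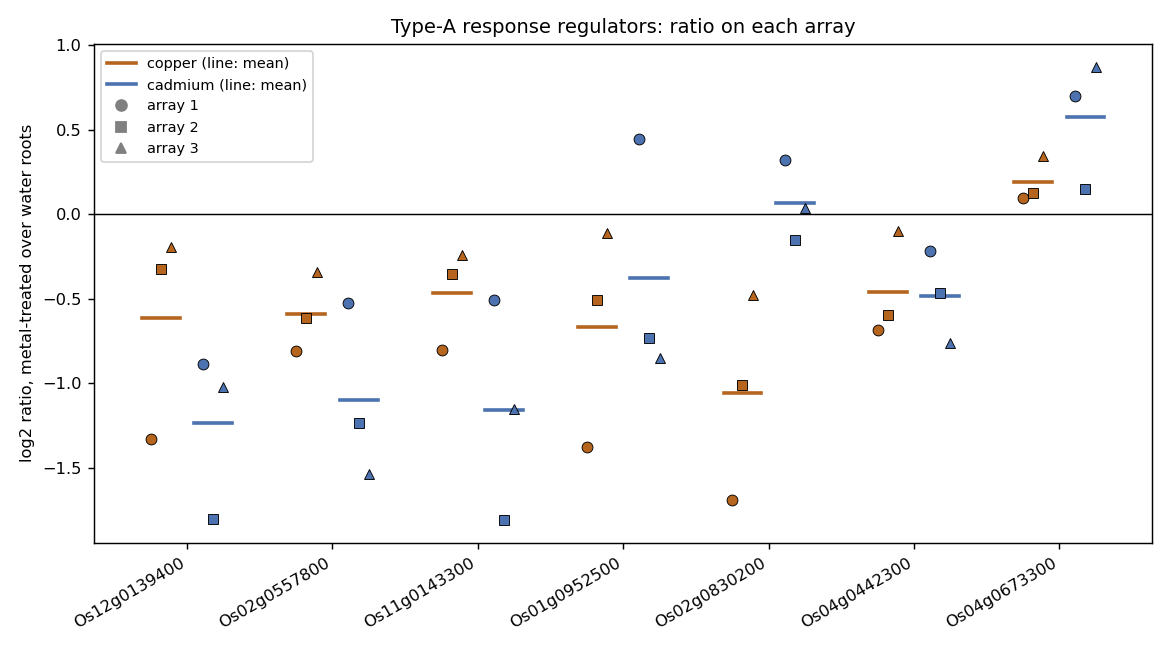
Log2 ratio of metal-treated over water roots (vertical axis) for the tested probe of 7 type-A response regulators (horizontal axis) on each of 3 copper arrays (brown) and 3 cadmium arrays (blue); symbols mark the array number and lines the mean of the 3 arrays. For 4 genes all 6 points lie below 0, while Os04g0673300 lies above 0 on all 6 arrays.

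The genes that cadmium lowered most were Os12g0139400, Os11g0143300 and Os02g0557800. Os12g0139400, on chromosome 12, had log2 ratios of -0.89, -1.80 and -1.02 on cadmium arrays 1 to 3. All 3 lay below 0, with array 2 the lowest. The gene stood at 42.4% of its water level, a log2 change of -1.24 ± 0.24 (SE, n = 3, limma adjusted p = 0.00701), and 0.158% of all genes tested had a lower value. On copper arrays 1 to 3 its ratios were -1.33, -0.32 and -0.20. These were also below 0, but array 1 stood far under the other two, and the change of -0.62 ± 0.24 (SE) did not pass (limma adjusted p = 0.0745). Without copper array 1 the value was -0.26 (adjusted p = 0.355).

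Os11g0143300, on chromosome 11, had ratios of -0.51, -1.81 and -1.16 on the cadmium arrays. It fell by 1.16 ± 0.22 on the log2 scale (SE, n = 3, limma adjusted p = 0.00615), to 44.9% of the water level. On the copper arrays the ratios were -0.81, -0.35 and -0.24, again all below 0, and the change of -0.47 ± 0.22 (SE) did not pass (limma adjusted p = 0.124). The values of the scanner's own normalization gave -0.82 for copper (adjusted p = 0.037), over 1.5 times the value here, and the copper change passed in 4 of 19 alternatives. Among these 4 is the authors' series table, which repeats the scanner's value. After centring the processed signals the copper change was -0.68 and did not pass (limma adjusted p = 0.0722). The ends of chromosomes 11 and 12 are known as a recently duplicated segment of the rice genome, and probes for such gene copies can bind both transcripts. The ratios of Os11g0143300 and Os12g0139400 were the closest of all 21 pairs of members, at a distance of 0.66 over the 6 arrays and with r = 0.90. They share arrays and channels, so this is a description, and how far each probe reads its own gene was not tested.

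Os02g0557800, on chromosome 2, had ratios of -0.52, -1.24 and -1.54 on the cadmium arrays and fell by 1.1 ± 0.18 on the log2 scale (SE, n = 3, limma adjusted p = 0.0032), to 46.7% of the water level. On the copper arrays the ratios were -0.81, -0.62 and -0.34. All 6 ratios were below 0, and those of the metals overlapped. Here the copper change of -0.59 ± 0.18 (SE, n = 3) passed (limma adjusted p = 0.032), to 66.5% of the water level. The copper call was lost without any 1 of the copper arrays or without cadmium array 2 (adjusted p between 0.0517 and 0.127), after centring the processed signals (0.0531) and when slides were a random block (0.161). The signal of its probe in cadmium roots was nearly the same on the 3 arrays, at 11.11, 11.14 and 11.12 on the log2 scale, against 11.63, 12.38 and 12.66 in water roots. The cadmium signals of this probe thus varied less between arrays than the water signals beside them. At the dimmer second probe of the gene they did not, with SDs of 0.53 in cadmium roots and 0.51 in water roots.

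The cadmium calls of Os12g0139400, Os11g0143300 and Os02g0557800 held under all 19 alternatives, with adjusted p of at most 0.0478, 0.0334 and 0.0286. Some of these, such as leaving out a copper array, could not move the cadmium value, only its SE and adjusted p. The authors' series table nearly repeats the scanner's processed signals, so the alternatives are not independent checks. On the slide that holds both metals their cadmium values were -1.41, -1.48 and -1.39 (limma adjusted p = 5.34e-05, 1.51e-05 and 2.85e-06). Taking slides as a random block gave -1.46, -1.24 and -1.14 (adjusted p = 0.00725, 0.0095 and 0.00419). The copper values on that slide were -0.26, -0.30 and -0.48, and the last of these passed (adjusted p = 0.00208). Slides as a random block gave copper values of -0.54, -0.26 and -0.40, none of which passed (adjusted p between 0.161 and 0.472).

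Os02g0830200, on chromosome 2, was the gene that copper lowered most. Its ratios were -1.69, -1.01 and -0.48 on copper arrays 1 to 3, and 0.32, -0.15 and 0.04 on cadmium arrays 1 to 3. The copper ratios all lay below the cadmium ratios, an order found in 15.7% of all genes with 6 values. The opposite order was found in 0 members and 16.6% of genes, and 32.3% had no overlap in either direction. With copper the gene stood at 48.0% of its water level, a log2 change of -1.06 ± 0.20 (SE, n = 3, limma adjusted p = 0.00454), and 0.252% of all genes had a lower value. With cadmium the change was 0.07 ± 0.20 (SE, limma adjusted p = 0.82). This SE is pooled over the metals, while the SDs of the ratios were 0.61 with copper and 0.24 with cadmium. The copper call held under all 19 alternatives, with values between -1.35 and -0.74 and adjusted p of at most 0.025. Some of these, such as leaving out a cadmium array, could not move the copper value, only its SE and adjusted p. On the shared slide the copper value was -0.74 (adjusted p = 0.000452), and slides as a random block gave -1.01 (adjusted p = 0.0109).

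The signals behind these ratios varied between arrays in water roots too. In copper roots Os02g0830200 read 9.13, 8.58 and 9.22 on the log2 scale, against 10.82, 9.59 and 9.70 in water roots on the same arrays. In cadmium roots it read 11.29, 10.34 and 9.65, against 10.97, 10.49 and 9.62 in water roots. The water signal thus spanned 9.59 to 10.97 over the 6 arrays, a range wider than the copper change itself, and the ratio was taken within each array.

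**Figure D2:**
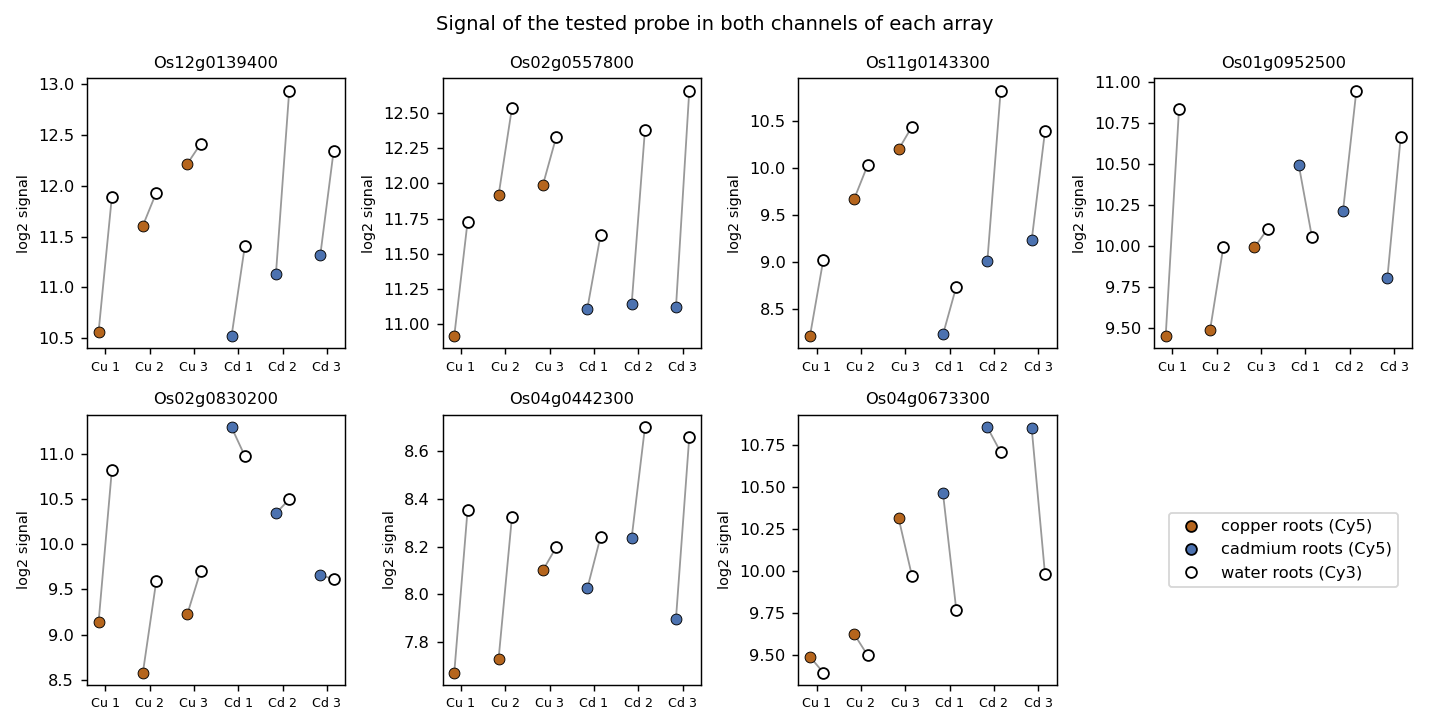
Log2 signal after background correction and normalization (vertical axis, its range set per gene) of the tested probe in metal-treated roots (filled, Cy5) and water roots (open, Cy3) on each array (horizontal axis); grey lines join the channels of an array. The filled point lies below the open one on all 6 arrays in Os12g0139400, Os02g0557800, Os11g0143300 and Os04g0442300, and above it on all 6 in Os04g0673300.

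Os04g0673300, on chromosome 4, was the 1 gene of the 7 whose ratio was above 0 on every array. Its ratios were 0.09, 0.13 and 0.34 on the copper arrays and 0.70, 0.15 and 0.87 on the cadmium arrays. With cadmium it rose to 149% of the water level, a log2 change of 0.57 ± 0.13 (SE, n = 3, limma adjusted p = 0.0146). With copper the change was 0.19 ± 0.13 (SE, limma adjusted p = 0.294), and it was -0.02 with the scanner's processed signals. The cadmium call was lost without cadmium array 1 or 3 (adjusted p = 0.0592 and 0.0858), with centring on the median instead of loess (0.0726) and when slides were a random block (0.08). On the shared slide the cadmium value was 0.51 (adjusted p = 0.0157).

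Os04g0442300, also on chromosome 4, fell by a similar amount with each metal. Its ratios were -0.68, -0.59 and -0.10 on the copper arrays and -0.22, -0.47 and -0.76 on the cadmium arrays, all below 0. The log2 change was -0.46 ± 0.14 with copper (SE, n = 3, limma adjusted p = 0.0309) and -0.48 ± 0.14 with cadmium (SE, n = 3, limma adjusted p = 0.0313), which leaves 72.8% and 71.6% of the water level. Both calls were lost with the replicate number as a block (adjusted p = 0.0528 and 0.0516) and when slides were a random block (0.151 and 0.0629). On the shared slide the values were -0.35 and -0.61 (adjusted p = 0.0298 and 0.00224). The copper call was lost without copper array 1, copper array 2 or cadmium array 2 (adjusted p between 0.0539 and 0.149), and the cadmium call without cadmium array 2 or 3 (0.111 and 0.166) or with the mean of its probes (0.0717). With the scanner's processed signals the changes were -0.85 with each metal, over 1.5 times those here.

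Os01g0952500, on chromosome 1, varied widely between arrays of the same metal. Its ratios were -1.38, -0.51 and -0.11 with copper and 0.44, -0.73 and -0.85 with cadmium. Cadmium array 1 was the only array above 0. Neither the copper change of -0.67 ± 0.29 (SE, limma adjusted p = 0.101) nor the cadmium change of -0.38 ± 0.29 (SE, limma adjusted p = 0.344) passed. On the slide that holds both metals, which leaves out arrays 1, the values were -0.31 with copper and -0.79 with cadmium, and both passed (adjusted p = 0.0201 and 0.000142). That fit has 2 arrays a metal, and 57.8% of all genes passed in it with copper and 48.0% with cadmium. In the fit of the other 5 arrays without copper array 1 the same copper value had an adjusted p of 0.437. The copper change passed in 2 of 19 alternatives, on that slide and without cadmium array 1 (limma adjusted p = 0.0362). In the latter fit 49.8% of all genes passed with copper. The cadmium value was -0.79 without cadmium array 1, -0.21 without array 2 and -0.14 without array 3, and none of these passed (adjusted p = 0.0611, 0.72 and 0.791).

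**Figure D3:**
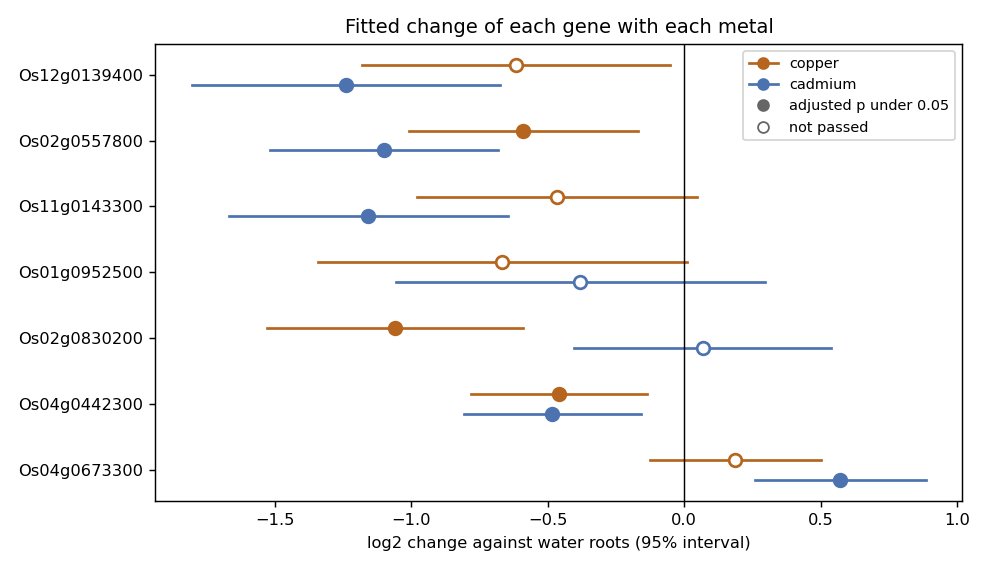
Fitted log2 change against water roots (horizontal axis, with 95% intervals) of the 7 genes (rows) with copper (brown) and cadmium (blue); filled points passed at adjusted p under 0.05. The 3 lowest cadmium points, all under -1, are those of Os12g0139400, Os11g0143300 and Os02g0557800, and the lowest copper point, at -1.06, is that of Os02g0830200.

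In copper against cadmium a dye effect shared by all arrays drops out. Here 1 of the 7 genes differed and 6 did not pass, and of all genes 10.6% differed, 4.07% lower and 6.57% higher with copper (limma, adjusted p under 0.05). The gene was Os02g0830200, lower with copper (log2 difference of copper minus cadmium -1.13 ± 0.29, SE, n = 3 each, limma adjusted p = 0.0461). The difference did not pass with the replicate number as a block (adjusted p = 0.052) or in 8 other alternatives, and was -0.69 on the shared slide (adjusted p = 0.0132) and -0.88 when slides were a random block (adjusted p = 0.0155). The copper values of Os11g0143300, Os12g0139400 and Os02g0557800 lay above their cadmium values by 0.69, 0.62 and 0.51, with 95% intervals of -0.03 to 1.41, -0.18 to 1.42 and -0.08 to 1.1. None of these passed (adjusted p between 0.215 and 0.309). On the shared slide alone the differences were 1.18, 1.15 and 0.91, and slides as a random block gave 0.97, 0.92 and 0.74, and all 6 of these values passed (adjusted p between 0.00106 and 0.0317). The slide fit rests on 2 arrays a metal, and 26.0% of all genes differed in it, against 25.1% with slides as a random block. Without cadmium array 2 the differences of Os11g0143300 and Os12g0139400 were 0.36 and 0.34, and without cadmium array 3 that of Os02g0557800 was 0.29, none of which passed (adjusted p between 0.459 and 0.621). For Os04g0442300 the difference was 0.02, with a 95% interval of -0.43 to 0.48, and for Os04g0673300 it was -0.38, with an interval of -0.83 to 0.06. That of Os01g0952500 was -0.29, with an interval of -1.24 to 0.67, and it was 0.48 on the shared slide (adjusted p = 0.0286).

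By array, between 4 and 6 of the 7 genes lay below 0. The median of the 7 ratios was -0.81, -0.51 and -0.20 on copper arrays 1 to 3 and -0.22, -0.73 and -0.85 on cadmium arrays 1 to 3, and these medians overlapped between the metals. The medians over all genes stayed between 0.01 and 0.03.

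For 3 genes a second probe was kept, on another transcript of the locus, and each gave the same direction as the first with both metals. The dimmer probe of Os02g0557800 gave -0.50 with copper and -0.89 with cadmium, and both passed among the 33695 probes kept (limma adjusted p = 0.00133 and 9.49e-05). Its ratios varied little, from -0.60 to -0.38 on the copper arrays and from -0.93 to -0.87 on the cadmium arrays. The difference between the metals at this probe, 0.39 ± 0.10 (SE), did not pass (adjusted p = 0.051). The second probe of Os11g0143300 gave -0.50 with copper, which did not pass (adjusted p = 0.084), and -0.70 with cadmium, which passed (0.0347). The second probe of Os04g0442300 gave -0.32 with copper and -0.20 with cadmium, and neither passed (adjusted p = 0.0656 and 0.234). Its cadmium array 1 was above 0, at 0.13.

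**Figure D4:**
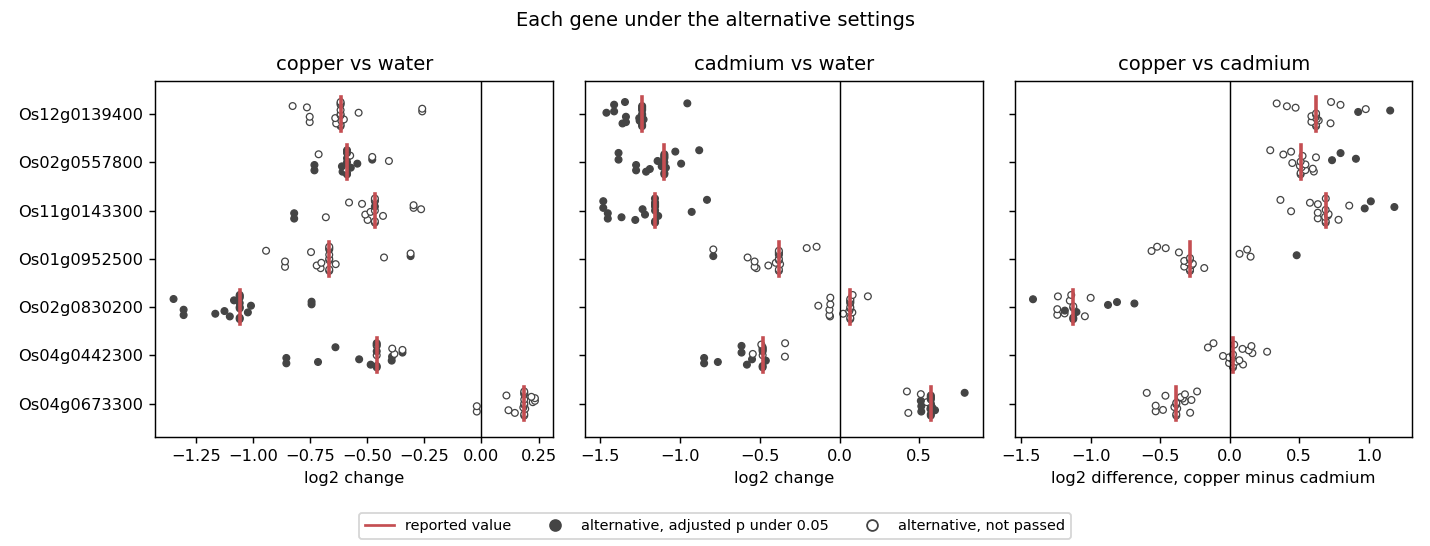
Log2 change (horizontal axis; in the right panel copper minus cadmium) of each gene (rows) under the alternative settings (points, filled where adjusted p was under 0.05), with the reported value as a red line. The cadmium points of Os12g0139400, Os02g0557800 and Os11g0143300 and the copper points of Os02g0830200 are all filled, while the points of Os01g0952500 in the right panel lie on both sides of 0.

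Loci with the most similar ratios were looked up for the member with the lowest and the member with the highest mean ratio, by Euclidean distance over the 6 arrays among 22602 genes with 6 values. For Os12g0139400 the nearest loci outside the family were Os12g0634400 and Os03g0671800, at distances of 0.99 and 1.00. Their mean ratios were -0.63 and -0.73 with copper and -0.88 and -1.34 with cadmium. Its nearest gene in the family, Os11g0143300, was closer, at 0.66. For Os04g0673300 they were Os08g0109000 and Os04g0577300, at distances of 0.32 and 0.39, with mean ratios of 0.22 and 0.24 with copper and 0.53 and 0.60 with cadmium. The files do not name these loci.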

How the data were processed

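The 6 two-colour arrays were scanned and extracted with Feature Extraction 10.7.1.1, per the file headers. The deposited median intensity of each spot and its local background is not normalized. Feature Extraction also wrote a processed intensity, with background removal, detrending and dye normalization done, per the file headers. Its deposited log10 ratio puts Cy5 over Cy3. Log2 ratios in the authors' series table had slopes of 1.00 against the scanner's ratios, treated over water. The sources used here do not give its centring, and its array medians ran from -0.191 to -0.050.

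Median signals were corrected with normexp (offset 50) and normalized by loess, with control and outlier spots left out. Probes well above background on all 3 arrays of a metal in a channel were kept, and the brightest probe of each locus was tested. Log2 ratios of all 6 arrays entered a two-sided limma fit (version 3.58.1, R 4.3.3, eBayes), with Benjamini-Hochberg adjustment over 23417 genes and a threshold of 0.05. The fit was tested on simulated data with independent noise on each array, which does not cover the correlation of arrays on a slide. Signals on the log2 scale are after quantile scaling of mean intensities between arrays, and those of different probes are not compared.

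All 9 loci are named. For the lowest and the highest, the 2 nearest loci are given. A list of other cytokinin pathway genes depended on names and had 0 members, as 0 locus numbers matched the reference table of assembly ASM3414082v1. Members and lists were chosen with earlier results of these data known. Copper and cadmium arrays of 1 number deviated together from their group means, with correlations of 0.37, 0.24 and 0.27, above 0.1, so the numbers were taken as pairs in a block fit. Copper 2 with cadmium 3 correlated at 0.23 and copper 3 with cadmium 2 at 0.19.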

Additional observations from a re-analysis of the deposited data

Results flagged for a closer look

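Os02g0830200 is set apart because the test of the difference between the metals passed, as it did for 10.6% of all genes. Its log2 ratio was lower with copper than with cadmium by a difference of -1.13 (copper minus cadmium, limma adjusted p = 0.0461), with all 3 copper ratios under all 3 cadmium ratios. The difference lay between -1.42 and -0.69 over 18 alternatives and passed in 9 of them.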

How the results depend on the processing

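When slides were a random block, the correlation of arrays on the same slide was estimated at 0.66, which the main fit leaves out. With copper, 3 genes were called, 1 with the slide as a random block and between 1 and 5 when 1 array was left out. The shares of all genes called were 42.9%, 36.1% and between 24.6% and 49.8%. With cadmium, 5 were called, 3 with the slide as a random block and between 3 and 5 with 1 array left out. Here the shares of all genes were 34.0%, 27.9% and between 19.2% and 38.5%. Between the metals, 1 was called, but 0 with median centring, with the scanner's processed signals (centred or not), with the authors' series table and with the replicate block, 4 with the slide as a random block, 5 on the shared slide alone, and between 0 and 2 with 1 array left out. The replicate block ended 3 calls, both of Os04g0442300 and the difference of Os02g0830200, and changed no other. The median over the genes stayed below 0 for both metals under the alternatives run. For copper, -0.59, it was -0.31 both without copper array 1 and on the shared slide, and -0.82 with the processed signals. For cadmium, -0.48, it was -0.85 with the processed signals and with the authors' table, and ran from -0.79 to -0.34 with 1 array left out. The processed signals and the authors' table also moved the median of all genes, to -0.13 for copper and -0.11 for cadmium. The median difference between the metals, 0.02, was 0.48 on the shared slide and turned to -0.064 with no filter on dim probes, -0.0050 with the processed signals and the authors' table and -0.049 with the mean of probes, and ran from -0.16 to 0.16 with 1 array left out. Values that were not called also changed sign. The cadmium value of Os02g0830200 was -0.060 with median centring, -0.063 with the processed signals and the authors' table, -0.058 on the shared slide, -0.13 with the slide block, and from -0.058 to 0.18 with 1 array left out. The copper value of Os04g0673300 was -0.020 with the processed signals and the authors' table. The difference of Os04g0442300 was -0.0050 with those settings, -0.049 with the mean of probes, and from -0.16 to 0.16 with 1 array left out, and that of Os01g0952500 was 0.15 with the slide block, 0.48 on the shared slide, and from -0.56 to 0.13 with 1 array left out. The causes were not tested. Over all genes, calls between the metals numbered 2491, against 3806 with the replicate block, 5876 with the slide block and 6077 on the shared slide. With 1 array left out they fell as low as 1252, and those for copper as low as 5762 of 10045 and for cadmium 4491 of 7960. Signal over background limited Os04g0524300 alone.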

Other observations

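In water roots the step in signal between the slides differed between the probes of Os11g0143300 and of Os02g0557800. Within the shared slide both probes of Os11g0143300 put the 4 arrays in the same order. The brighter probe of Os11g0143300 read 9.02 and 8.74 on the log2 scale on copper array 1 and cadmium array 1, against 10.03 to 10.82 on the 4 arrays of the shared slide, while its second probe read 9.70 and 9.43 against 8.45 to 9.63. For Os02g0557800 the brighter probe read 11.73 and 11.63 on those 2 arrays, against 12.33 to 12.66 on the shared slide, and its second probe 8.60 and 8.61 against 7.49 to 7.99. The ratios of metal-treated to water roots at these probes were below 0 on all 6 arrays.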
